A study of Saccharomyces cerevisiae with 17 samples.

Results

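Large ribosomal subunit assembly factors are the proteins that help to build the large subunit of the ribosome and then leave it. 46 of their genes were taken by name from the gene symbols of the array annotation, each measured by 1 probe set, out of 5449 Saccharomyces cerevisiae genes tested. No cut on measured values was used, but the genes were chosen with earlier results of these data known. A large subunit is made in the nucleolus, where RNA helicases, RNA-binding proteins, methyltransferases and placeholder proteins join the precursor of the ribosomal RNA, and it is finished in the nucleoplasm and, after export, in the cytoplasm. In laboratory S. cerevisiae these genes are known as part of a large set that is transcribed together in fast growth and lowered when nutrients run out or TOR signalling is inhibited.

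The samples were fermentations of Colombar grape must with little oxygen by the industrial wine yeast strains BM45 and VIN13, measured as total RNA on Affymetrix arrays. They were taken at day 2, in exponential growth, at day 5, early in stationary phase, and at day 14, late in stationary phase. BM45 had 2 arrays at day 2, numbered 2 and 4 in the sample titles, while every other group of strain and day had 3, for a total of 17. No genotype beyond the strain name and no treatment beyond time was given, and nothing says that the arrays of a group came from separate cultures, and each p-value therefore reflects only how far these samples spread. In bulk RNA, fewer cells with a transcript and less of it per cell cannot be told apart.

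Values of single arrays are deposited intensities of 1 probe set and are compared only within a gene. Changes are differences of group means of log2(intensity + 16) ± the standard error of the limma fit, so a change of 1 is a doubling, and the words rose, fell, higher and lower are kept for an adjusted p under 0.05 over all 5449 genes where a gene is named as passing. All 46 genes had a mean above the background bound, an intensity of 100.7 set from Schizosaccharomyces pombe probe sets, and 43 of them lay above it in every group. The number of arrays limits the precision of every value. On 4 arrays, replicate 4 of BM45 and replicate 1 of VIN13 at day 2 and replicate 3 of VIN13 at both later days, earlier work on these data found deviations from the group means that ran together. Their ACT1 control, a ratio of 3' over 5' signal that grows as RNA is broken down, stood at 5.33, 5.55, 2.86 and 2.37, the highest of each of their groups. These 4 arrays were singled out by their deviations in these same data. Leaving them out narrows the spread by the choice of arrays, so no call is drawn from counts without them.

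Between days 2 and 5 most assembly factor genes fell in both strains, and the mean change was the lower one in BM45 for 43 of the 46. In BM45 41 of the 46 fell, where 33.9% of all genes fell, with a median of -0.91 against -0.07 for all genes. In VIN13 31 of the 46 fell, where 22.2% of all genes fell, with a median of -0.48 against -0.03. By limma 0 members rose in either strain, where 22.8% and 15.5% of all genes did, and 0 stood higher at an unadjusted p under 0.05. The 30 genes that fell in both strains made up 73.2% of those that fell in BM45 and 96.8% of those that fell in VIN13. YTM1, RRB1, ERB1, MAK21 and RIX1 had the largest falls averaged over the strains. Every array of day 5 lay below every array of day 2 for 41 members in BM45, as for 40.9% of all genes, and for 34 in VIN13, as for 25.9%. Without the 4 arrays, which leaves BM45 with 1 array at day 2, the median was -0.99 in BM45, and 32 fell in VIN13, at a median of -0.34. Without replicate 2 of BM45 at day 2 the calls of RLP24, RRS1 and LSG1 were lost. The VIN13 count moved with replicate 1 of day 2, and without it 19 members fell, at a median of -0.31, with 12 of the 31 calls lost and 14 values moved by over 1.5 times. Without replicate 1 or 2 of VIN13 at day 5, 10 and 7 of the 31 calls were lost.

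Between days 5 and 14 more members fell than rose. The shares of members that rose, 15.2% in BM45 and 6.52% in VIN13, lay under those of all genes. In BM45 26 members fell and 7 rose, where 43.1% of all genes fell and 23.9% rose, and the median was -0.57 against -0.19 for all genes. With quantile normalization 16 fell and 7 rose there, at a median of -0.23 against -0.04 for all genes. In VIN13 19 fell and 3 rose, where 24.5% of all genes fell and 19.0% rose, and the median was -0.37 against -0.03. In the BM45 interval the share of members that fell stood closer to that of all genes than it had between days 2 and 5. Without VIN13 day 2 replicate 1, which enters this contrast only through the shared spread, 30 fell and 5 rose in VIN13. RLP7, NOC3 and MRT4 rose in both strains, and CIC1, RPF1, NSA1 and NUG1 rose in BM45. The VIN13 call of RLP7 passed under only 22 of 28 alternatives.

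Over the whole span from day 2 to day 14, 40 members ended lower and 2 higher in BM45, where 46.6% of all genes ended lower and 28.8% higher, at a median of -1.48 against -0.24 for all genes. In VIN13 38 ended lower and 1 higher, where 35.5% of all genes ended lower and 28.2% higher, at a median of -0.78 against -0.06. In BM45, 25 members fell in both steps, 11 fell only in the first by the test, and 5 fell and then rose. In VIN13 the same counts were 15, 15 and 1, and 9 members passed the test in neither step. Median centring moved the median of all genes in BM45 from -0.24 to 0.09, and the members' median was then -1.15.

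**Figure D1:**
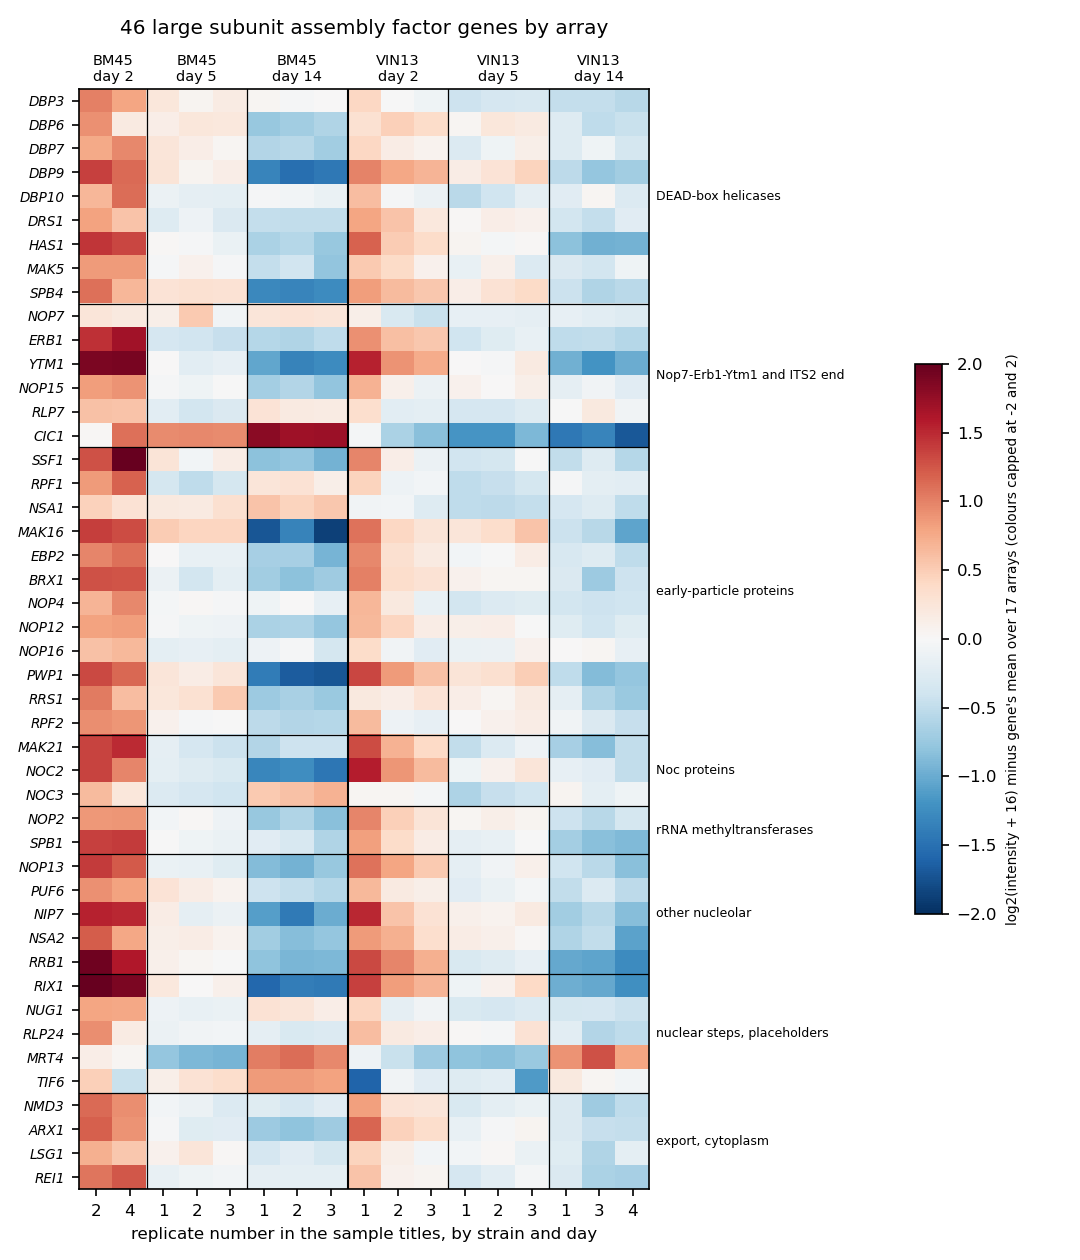
Heatmap of 46 large subunit assembly factor genes (rows, by role) in 17 arrays (columns, by strain, day and replicate number), coloured by log2(intensity + 16) minus the gene's mean over the arrays. Most rows go from red at day 2 to blue at day 14 in both strains, MRT4 is highest at day 14 in both, CIC1 goes opposite ways in the strains, and among VIN13 day 2 arrays replicate 1 is the reddest for 42 of the 46 genes.

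In each role below the counts stand against the shares of all genes. Among all genes, 33.9% fell and 22.8% rose in BM45 between days 2 and 5, and 22.2% and 15.5% in VIN13. From day 5 to day 14, 43.1% fell and 23.9% rose in BM45, and 24.5% and 19.0% in VIN13. The DEAD-box RNA helicases unwind or remodel the precursor RNA within the early particles. Of these 9 genes, 8 fell in BM45 and 7 fell in VIN13 between days 2 and 5, and 6 fell in BM45 and 5 fell in VIN13 between days 5 and 14. The median change was -0.84 in BM45 and -0.44 in VIN13 in the first interval, and -0.61 and -0.44 in the second. HAS1, a helicase that also acts in the making of the small subunit, had the largest fall of the role between days 2 and 5 averaged over the strains, and DBP6 the smallest change. HAS1 in BM45 read 684 and 641 at day 2, 248, 241 and 222 at day 5 and 152, 160.1 and 138 at day 14. In VIN13 HAS1 read 576, 354 and 321 at day 2, 256, 239 and 249 at day 5 and 132, 119 and 119 at day 14. Every day lay below the one before it in both strains, with falls of 1.42 ± 0.17 and 0.67 ± 0.15 in the first interval (adjusted p = 9.56e-06 and 0.00369) and of 0.61 ± 0.15 and 0.93 ± 0.15 in the second. DBP6 in BM45 read 892 and 528 at day 2, 512, 544 and 538 at day 5 and 267, 282 and 300.0 at day 14. In VIN13 DBP6 read 578, 656 and 602 at day 2, 479, 543 and 531 at day 5 and 386, 322 and 336 at day 14. The day 2 and day 5 arrays overlapped in BM45 and came close in VIN13, at -0.36 ± 0.16 and -0.23 ± 0.14 (adjusted p = 0.0657 and 0.214), and the fall came between days 5 and 14, by 0.87 ± 0.14 and 0.55 ± 0.14. DBP9 and SPB4 fell in both intervals and by more in the second, 1.57 ± 0.12 and 1.58 ± 0.11 in BM45 and 0.95 ± 0.12 and 0.78 ± 0.11 in VIN13. DBP10 fell in the first interval, by 1.05 ± 0.19 in BM45 and 0.52 ± 0.17 in VIN13, and stood at 0.09 ± 0.17 and 0.21 ± 0.17 in the second. The other 4, DBP3, DBP7, DRS1 and MAK5, fell by 0.72 to 0.91 in BM45 between days 2 and 5.

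Nop7, Erb1 and Ytm1 form a complex, and with Nop15, Rlp7 and Cic1 they sit at the spacer between the RNAs that end up in the large subunit, whose removal they assist. Of these 6 genes, 4 fell in BM45 and 2 fell in VIN13 between days 2 and 5, and 2 fell and 2 rose in BM45 and 1 fell and 1 rose in VIN13 between days 5 and 14. The median change was -0.88 in BM45 and -0.43 in VIN13 in the first interval, and -0.05 and -0.24 in the second. The role held both deep falls and genes that rose. YTM1, whose protein is pulled off the particle to let it mature, fell in every step. YTM1 in BM45 read 1633 and 1659.5 at day 2, 433, 372 and 384 at day 5 and 202, 162 and 171 at day 14. In VIN13 YTM1 read 1290.5, 822 and 733 at day 2, 433, 426 and 493 at day 5 and 215, 180.4 and 210.5 at day 14. The groups did not overlap between successive days in either strain, and the falls were 2.01 ± 0.18 and 1.01 ± 0.16 between days 2 and 5 (adjusted p = 6.53e-07 and 0.000261) and 1.09 ± 0.16 and 1.10 ± 0.16 between days 5 and 14. ERB1 in BM45 read 2374 and 2749 at day 2, 669.5, 645 and 616 at day 5 and 564, 557 and 593 at day 14. In VIN13 ERB1 read 1607, 1294 and 1248 at day 2, 643, 717 and 767 at day 5 and 594, 599 and 569 at day 14. ERB1 thus dropped in the first interval, by 1.96 ± 0.12 and 0.94 ± 0.10, and stood at -0.17 ± 0.10 and -0.26 ± 0.10 in the second (adjusted p = 0.169 and 0.0537). NOP7 in BM45 read 768 and 741 at day 2, 700.0, 935 and 613 at day 5 and 768, 787 and 769 at day 14. In VIN13 NOP7 read 704, 522 and 473 at day 2, 575, 573 and 570.4 at day 5 and 572, 557 and 536 at day 14. Its arrays overlapped across all 3 days in both strains, and no time contrast passed the test for this partner of YTM1 and ERB1, with changes of 0.04 ± 0.16 and -0.01 ± 0.14 from day 2 to day 14 (adjusted p = 0.837 and 0.967).

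RLP7 encodes a nucleolar relative of the ribosomal protein Rpl7. RLP7 in BM45 read 2997 and 2958 at day 2, 1712, 1534 and 1629 at day 5 and 2420.2, 2249 and 2228 at day 14. In VIN13 RLP7 read 2511, 1709.9 and 1739 at day 2, 1573, 1568 and 1658 at day 5 and 1979, 2281 and 1886 at day 14. It was lowest at day 5 in both strains, fell by 0.87 ± 0.14 in BM45 in the first interval against -0.29 ± 0.13 in VIN13 (adjusted p = 0.0857), and rose by 0.50 ± 0.13 and 0.35 ± 0.13 in the second. The VIN13 call of this rise was lost without replicate 1 or 3 of day 14 or any single array of day 5. The ribosomal gene RPL7A had changes of -0.96 ± 0.09 and -0.87 ± 0.09 there, a fall in both strains. CIC1, whose protein is also known as an adaptor of the proteasome, went opposite ways in the strains. CIC1 in BM45 read 1400.1 and 2989 at day 2, 2684, 2710.4 and 2682 at day 5 and 4879.6, 4516 and 4576 at day 14. In VIN13 CIC1 read 1353, 888 and 765 at day 2, 602, 604 and 736 at day 5 and 502, 547 and 417 at day 14. In BM45 it rose by 0.79 ± 0.23 between days 5 and 14 and by 1.18 ± 0.26 over the whole span, and in VIN13 it fell by 0.98 ± 0.23 over the whole span, at -0.58 ± 0.23 and -0.40 ± 0.23 in the steps (adjusted p = 0.0584 and 0.18). The day 2 arrays of BM45 lay far apart, and the change to day 5 depended on which was used. It was 0.94 ± 0.23 from replicate 2 alone and -0.15 ± 0.23 from replicate 4 alone, each a day 2 group of 1 array that borrowed its spread from the other groups, and 0.39 ± 0.26 from both (adjusted p = 0.205). The change over the whole span was 1.72 ± 0.23 and 0.64 ± 0.23 in the same way. NOP15, the last gene of this role, fell by 0.90 ± 0.17 and 0.64 ± 0.15 in BM45, and its steps in VIN13 were -0.16 ± 0.15 and -0.23 ± 0.15, with 0.39 ± 0.15 the fall over the whole span.

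**Figure D2:**
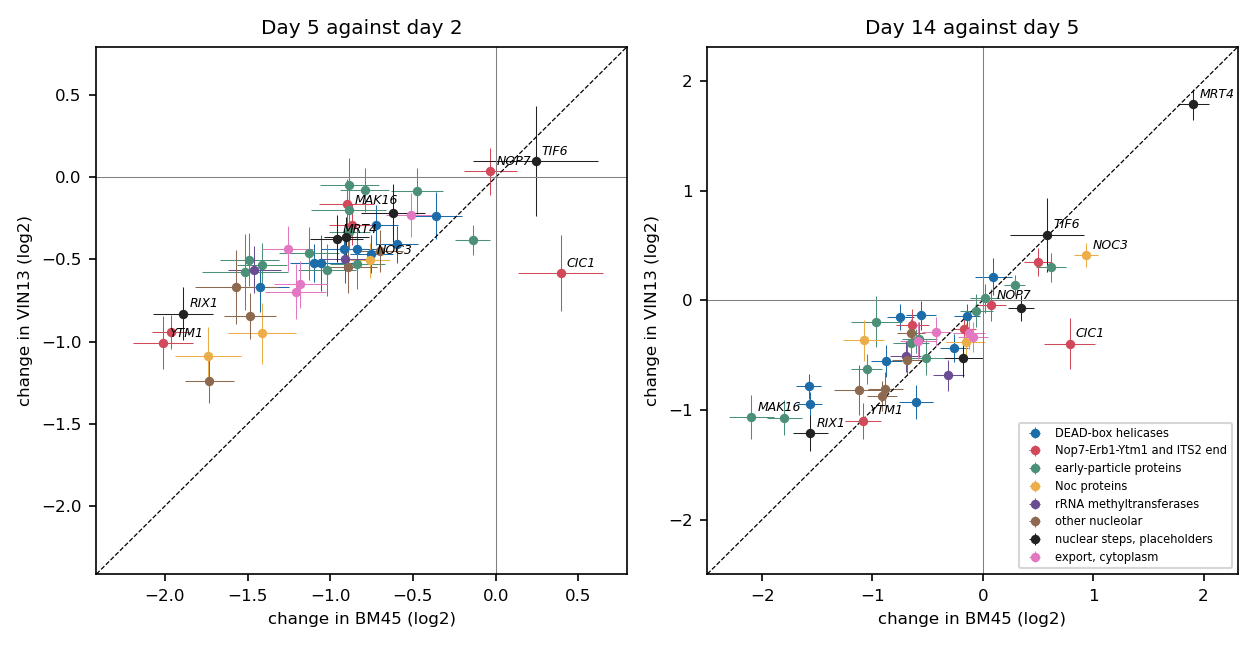
Change of each of the 46 genes in BM45 (x axis) and in VIN13 (y axis) on the log2 scale, between days 2 and 5 (left) and between days 5 and 14 (right), with standard errors, coloured by role; the dashed line marks equal change. In the left panel 43 of the 46 genes lie above the line, a lower change in BM45, and in the right panel MRT4 stands alone at the upper right and CIC1 has opposite signs.

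The early-particle proteins bind the young precursor and fold its outer domains, and among them Rpf2 and Rrs1 bring in the smallest ribosomal RNA with its proteins. Of these 12 genes, 11 fell in BM45 and 7 fell in VIN13 between days 2 and 5, and 8 fell and 2 rose in BM45 and 5 fell in VIN13 between days 5 and 14. The median change was -0.89 in BM45 and -0.42 in VIN13 in the first interval, and -0.59 and -0.36 in the second. SSF1 and NSA1 were the ends of this role between days 2 and 5. SSF1 in BM45 read 728 and 1208 at day 2, 352, 281 and 326 at day 5 and 158, 164 and 144 at day 14. In VIN13 SSF1 read 588, 321 and 268 at day 2, 219, 226 and 290.2 at day 5 and 202, 242 and 191 at day 14. In BM45 SSF1 fell by 1.51 ± 0.26 and then by 0.96 ± 0.23, and in VIN13 day 2 spread widely and the steps were -0.58 ± 0.23 and -0.19 ± 0.23 (adjusted p = 0.0647 and 0.528). SSF1 has a close paralog, SSF2, so its probe set is open to cross-hybridisation. NSA1 in BM45 read 1112 and 988 at day 2, 923, 913 and 1017 at day 5 and 1205, 1111 and 1179 at day 14. In VIN13 NSA1 read 771, 779.9 and 675 at day 2, 564, 554 and 576 at day 5 and 636, 672 and 562 at day 14. BM45 lay above VIN13 on every array at each day. NSA1 fell in VIN13 in the first interval by 0.38 ± 0.09 and rose in BM45 in the second by 0.29 ± 0.09, against -0.14 ± 0.10 in BM45 in the first (adjusted p = 0.261).

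RPF1 and BRX1, both with the Brix domain that binds ribosomal RNA, took different courses late. RPF1 in BM45 read 1483 and 1870.2 at day 2, 639.6, 569 and 639 at day 5 and 967, 1001 and 893 at day 14. In VIN13 RPF1 read 1122, 760.5 and 789 at day 2, 574, 590.1 and 636 at day 5 and 805, 716 and 708 at day 14. RPF1 fell by 1.41 ± 0.15 and 0.54 ± 0.13 in the first interval, then rose by 0.62 ± 0.13 in BM45 and stood at 0.30 ± 0.13 in VIN13 (adjusted p = 0.083). BRX1 in BM45 read 3189 and 3144 at day 2, 1211, 1009.9 and 1139 at day 5 and 803, 737 and 794 at day 14. In VIN13 BRX1 read 2662, 1680.2 and 1595 at day 2, 1385, 1345 and 1339 at day 5 and 1071, 789 and 974 at day 14. BRX1 fell in both, by 1.49 ± 0.18 and 0.50 ± 0.16 first and by 0.51 ± 0.16 and 0.53 ± 0.16 later. RPF2 in BM45 read 1914 and 1855 at day 2, 1061, 987 and 994 at day 5 and 692, 663 and 669.8 at day 14. In VIN13 RPF2 read 1554, 932 and 891 at day 2, 1002, 1062 and 1105 at day 5 and 950.3, 810.1 and 719.8 at day 14. RPF2 fell in BM45 in both steps, by 0.88 ± 0.18 and 0.58 ± 0.16, and in VIN13 replicate 1 stood far above the other day 2 arrays and the first step was -0.04 ± 0.16 (adjusted p = 0.848). NOP16 in BM45 read 1209 and 1262 at day 2, 703, 718 and 698 at day 5 and 744, 788 and 628 at day 14. In VIN13 NOP16 read 1039, 763 and 687 at day 2, 733, 741 and 852 at day 5 and 808, 829.7 and 717 at day 14. NOP16 fell in BM45 between days 2 and 5, by 0.79 ± 0.15, and over the whole span, by 0.77 ± 0.15, and its VIN13 changes over the same spans were -0.08 ± 0.13 and -0.06 ± 0.13.

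MAK16, bound early to the first domains of the precursor, and PWP1, a WD-repeat protein, fell most between days 5 and 14. MAK16 in BM45 read 486 and 456 at day 2, 257, 241 and 243 at day 5 and 42.2, 60.0 and 36.5 at day 14. In VIN13 MAK16 read 389, 239 and 212 at day 2, 209.7, 228 and 267 at day 5 and 126, 114 and 76.7 at day 14. At day 14 BM45 lay below the background bound, so its level there is only a bound, at least 2.25-fold lower than at day 5 (adjusted p = 4.5e-07), and in VIN13 the fall was 1.06 ± 0.20. PWP1 in BM45 read 759 and 672 at day 2, 352, 328 and 352 at day 5 and 102, 82.3 and 79.5 at day 14. In VIN13 PWP1 read 769.7, 544 and 451 at day 2, 358, 372 and 420.0 at day 5 and 203, 155 and 166 at day 14. The BM45 mean of day 14 was again below the bound, with 1 of 3 arrays above it, at least 3.07-fold lower than at day 5 (adjusted p = 1.91e-07), and VIN13 fell by 1.07 ± 0.16. EBP2, NOP4 and NOP12 fell in both strains in the first interval, by 0.84 to 1.13 in BM45 and by 0.33 to 0.53 in VIN13. RRS1, the partner of RPF2, fell by 1.05 ± 0.14 and 0.63 ± 0.14 in the second interval.

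The Noc proteins escort the particle from the nucleolus into the nucleoplasm, Mak21 with Noc2 in the early step and Noc2 with Noc3 in the later one. Of these 3 genes, 3 fell in BM45 and 3 fell in VIN13 between days 2 and 5, and 1 fell and 1 rose in BM45 and 1 rose in VIN13 between days 5 and 14. All 3 fell together between days 2 and 5 and parted afterwards. Among all genes, 43.1% fell and 23.9% rose in BM45 in that later interval, and 24.5% and 19.0% in VIN13. MAK21 in BM45 read 2052 and 2254 at day 2, 695, 627 and 585 at day 5 and 525, 591 and 589 at day 14. In VIN13 MAK21 read 1972, 1292 and 1053 at day 2, 561, 652 and 736 at day 5 and 493, 431 and 560.2 at day 14. MAK21 fell by 1.74 ± 0.20 and 1.09 ± 0.18 in the first interval (adjusted p = 6.12e-06 and 0.000315) and then stood at -0.16 ± 0.18 and -0.38 ± 0.18. NOC2 in BM45 read 986 and 759.5 at day 2, 328, 314 and 303 at day 5 and 143, 151 and 129 at day 14. In VIN13 NOC2 read 1151, 709 and 598 at day 2, 355, 402 and 449 at day 5 and 337, 322 and 266 at day 14. After falls of 1.41 ± 0.21 and 0.95 ± 0.19, NOC2 fell on in BM45 by 1.08 ± 0.19 and was at -0.37 ± 0.19 in VIN13 (adjusted p = 0.126). NOC3 in BM45 read 1522 and 1136 at day 2, 802, 772 and 738 at day 5 and 1414, 1474 and 1589 at day 14. In VIN13 NOC3 read 1003, 1003 and 944 at day 2, 633, 702 and 732 at day 5 and 1009, 849 and 913 at day 14. NOC3, also known in yeast for a part in starting DNA replication, fell by 0.76 ± 0.12 and 0.51 ± 0.11 and rose again by 0.94 ± 0.11 and 0.41 ± 0.11, so that its day 14 arrays lay above all day 5 arrays in each strain.

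Nop2 and Spb1 methylate the large ribosomal RNA, Nop2 on a base and Spb1 on a ribose. Of these 2 genes, 2 fell in BM45 and 2 fell in VIN13 between days 2 and 5, and 1 fell in BM45 and 2 fell in VIN13 between days 5 and 14. SPB1 in BM45 read 842 and 865 at day 2, 316, 299 and 287 at day 5 and 269, 249 and 203 at day 14. In VIN13 SPB1 read 574, 413 and 355 at day 2, 277, 286 and 314 at day 5 and 191, 171 and 165 at day 14. SPB1 fell by 1.46 ± 0.16 in BM45 and 0.56 ± 0.14 in VIN13 in the first interval, and in the second by 0.68 ± 0.14 in VIN13 against -0.31 ± 0.14 in BM45 (adjusted p = 0.0664). NOP2 in BM45 read 1598 and 1619 at day 2, 843, 889 and 809 at day 5 and 506, 566 and 478 at day 14. In VIN13 NOP2 read 1736, 1212 and 1046 at day 2, 894, 947 and 906 at day 5 and 647, 586 and 680.0 at day 14. NOP2 fell at each step in each strain, by 0.91 ± 0.16 and 0.70 ± 0.14 in BM45 and by 0.50 ± 0.14 and 0.51 ± 0.14 in VIN13.

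The other nucleolar proteins, a chaperone and RNA-binding or scaffold proteins, fell in nearly every step. Of these 5 genes, 5 fell in BM45 and 5 fell in VIN13 between days 2 and 5, and 5 fell in BM45 and 4 fell in VIN13 between days 5 and 14. The median change was -1.48 in BM45 and -0.67 in VIN13 in the first interval, and -0.88 and -0.81 in the second. RRB1 encodes the dedicated chaperone of the ribosomal protein Rpl3. RRB1 in BM45 read 3056 and 2424 at day 2, 847, 803 and 777 at day 5 and 444, 408 and 415 at day 14. In VIN13 RRB1 read 1976, 1567 and 1292 at day 2, 630.4, 656 and 703 at day 5 and 378, 370.1 and 318 at day 14. No day overlapped with the next, with falls of 1.73 ± 0.15 and 1.24 ± 0.13 in the first interval (adjusted p = 4.68e-07 and 6.91e-06) and of 0.91 ± 0.13 and 0.87 ± 0.13 in the second. RPL3, the gene of its client, had changes of -0.93 ± 0.18 and -0.69 ± 0.16 and then of -1.04 ± 0.16 and -1.37 ± 0.16, all falls by the test. PUF6 in BM45 read 1916 and 1766 at day 2, 1215, 1113 and 1055 at day 5 and 749, 722 and 670.2 at day 14. In VIN13 PUF6 read 1594, 1144 and 1096 at day 2, 860.5, 922 and 985 at day 5 and 711, 832 and 697 at day 14. PUF6, a Pumilio-family RNA-binding protein that also represses the ASH1 messenger, fell in BM45 by 0.70 ± 0.14 and 0.65 ± 0.13 and in VIN13 by 0.45 ± 0.13, with -0.30 ± 0.13 later (adjusted p = 0.0686). NOP13, NIP7 and NSA2 fell in all 4 steps, by 0.54 to 1.57. The NIP7 call in VIN13 between days 2 and 5 passed under only 20 of 28 alternatives.

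Among the genes of nuclear maturation and the placeholders, a GTPase (NUG1), a subunit of the complex that checks the particle before export (RIX1), and proteins that hold the place of ribosomal proteins (RLP24, MRT4) or keep the subunits apart (TIF6) took different courses. Of these 5 genes, 4 fell in BM45 and 2 fell in VIN13 between days 2 and 5, and 1 fell and 2 rose in BM45 and 2 fell and 1 rose in VIN13 between days 5 and 14. RIX1 in BM45 read 893 and 752 at day 2, 226, 195 and 209 at day 5 and 54.5, 64.4 and 62.6 at day 14. In VIN13 RIX1 read 526, 357 and 319.7 at day 2, 181, 206 and 260.2 at day 5 and 90.1, 86.5 and 73.6 at day 14. At day 14 both strains lay below the background bound, at least 7.16-fold lower than at day 2 in BM45 (adjusted p = 6.44e-10) and at least 3.5-fold in VIN13 (adjusted p = 9.01e-08), after falls of 1.89 ± 0.18 and 0.83 ± 0.16 between days 2 and 5. NUG1 in BM45 read 2080.5 and 2066 at day 2, 1123, 1086 and 1094 at day 5 and 1478, 1423 and 1320.3 at day 14. In VIN13 NUG1 read 1616, 1063 and 1139 at day 2, 966, 950.0 and 995 at day 5 and 935, 946 and 892 at day 14. NUG1 fell by 0.90 ± 0.13 and 0.36 ± 0.12 and rose again in BM45 by 0.35 ± 0.12, with -0.07 ± 0.12 in VIN13 (adjusted p = 0.672). RLP24 is the placeholder of Rpl24. RLP24 in BM45 read 1615 and 943 at day 2, 778, 804 and 812 at day 5 and 741, 677 and 696 at day 14. In VIN13 RLP24 read 1303, 959 and 924 at day 2, 857, 828 and 1029 at day 5 and 729, 558 and 588 at day 14. It fell in BM45 in the first interval by 0.62 ± 0.20, where the day 2 arrays lay far apart and the change was -1.003 ± 0.19 from replicate 2 alone and -0.24 ± 0.19 from replicate 4 alone (adjusted p = 0.000656 and 0.292). In VIN13 it fell in the second by 0.52 ± 0.17, a call lost without replicate 3 or 4 of day 14 or replicate 3 of day 5.

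MRT4, the placeholder of the stalk protein P0, had the largest rise of the set. MRT4 in BM45 read 2689 and 2522 at day 2, 1419, 1304 and 1269.8 at day 5 and 5001, 5344 and 4783 at day 14. In VIN13 MRT4 read 2269, 1799 and 1474 at day 2, 1389, 1356 and 1455 at day 5 and 4561, 5937 and 4242 at day 14. The arrays of day 14 lay above every array of days 2 and 5 in both strains. MRT4 fell by 0.96 ± 0.16 in BM45 between days 2 and 5, with -0.37 ± 0.14 in VIN13 (adjusted p = 0.0507), and then rose by 1.91 ± 0.14 and 1.78 ± 0.14 (adjusted p = 4.84e-08 and 1.22e-06). RPP0, the gene of the protein it stands in for, read 6416 and 5238 at day 2, 4730.2, 4124 and 4245 at day 5 and 2298, 2129 and 2323 at day 14 in BM45. Its VIN13 arrays read 6265, 6345 and 6083 at day 2, 5661, 5998 and 5197 at day 5 and 2761, 2437 and 2633 at day 14. RPP0 was lowest at day 14 in both strains, with changes from day 5 of -0.95 ± 0.10 and -1.10 ± 0.10, both falls.

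TIF6 varied widely between arrays in some groups. TIF6 in BM45 read 2638 and 1397 at day 2, 2067, 2333 and 2439 at day 5 and 3445, 3456 and 3344 at day 14. In VIN13 TIF6 read 616, 1807 and 1619 at day 2, 1579, 1639.5 and 860.4 at day 5 and 2183, 1958 and 1829 at day 14. The array of lowest TIF6 signal at day 2 in each strain and at day 5 in VIN13 was the one with the highest ACT1 ratio, and the slope of TIF6 within groups was -0.86 per doubling of that ratio, against 0.17 for the median member and -0.05 for the median gene. No contrast passed the test with all arrays, with 0.58 ± 0.34 in BM45 and 0.60 ± 0.34 in VIN13 between days 5 and 14 (adjusted p = 0.138 and 0.168). Without the 4 arrays these were 0.58 ± 0.08 and 0.31 ± 0.10, and VIN13 minus BM45 was -0.50 ± 0.09 at day 5 and -0.77 ± 0.09 at day 14. The 4 arrays include the lowest TIF6 array of day 2 in each strain and of VIN13 at day 5. Leaving them out narrows the spread of TIF6 by the choice of arrays, so no call is drawn from these values.

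**Figure D3:**
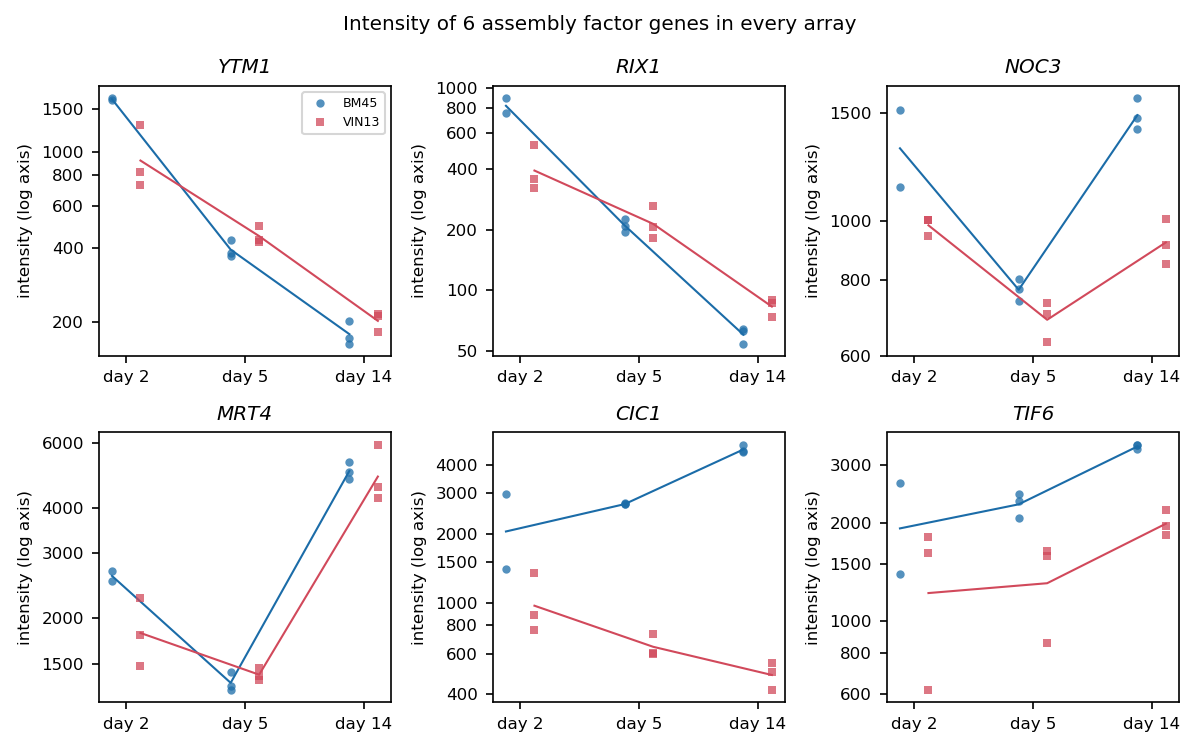
Intensity (log axis) of YTM1, RIX1, NOC3, MRT4, CIC1 and TIF6 at days 2, 5 and 14, with 1 point per array, BM45 as blue circles and VIN13 as red squares, and lines through the group means of log2(intensity + 16). YTM1 and RIX1 fall at each step, NOC3 dips at day 5, MRT4 is at 4242 or above on every day 14 array, CIC1 parts between the strains, and TIF6 has single low arrays at 616 and 860 in VIN13.

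The last role covers export and the cytoplasmic steps. Of these 4 genes, 4 fell in BM45 and 3 fell in VIN13 between days 2 and 5, and 2 fell in BM45 and none passed limma's test, with 3 at an unadjusted p under 0.05, in VIN13 between days 5 and 14. The median change was -1.20 in BM45 and -0.54 in VIN13 in the first interval, and -0.27 and -0.31 in the second. Nmd3 and Arx1 carry the subunit through the nuclear pore, Rei1 is needed to release Arx1, and the GTPase Lsg1 to release Nmd3. ARX1 in BM45 read 1540.0 and 1252 at day 2, 654, 562 and 562 at day 5 and 395, 373 and 398 at day 14. In VIN13 ARX1 read 1514, 919.5 and 849 at day 2, 598, 655 and 691 at day 5 and 539.5, 481 and 474 at day 14. ARX1 fell by 1.21 ± 0.19 and 0.70 ± 0.17 and, in BM45, by a further 0.59 ± 0.17. REI1 in BM45 read 1418 and 1594 at day 2, 596, 622 and 640.5 at day 5 and 585, 577 and 577 at day 14. In VIN13 REI1 read 994, 703 and 690.4 at day 2, 521, 568 and 646 at day 5 and 539, 421 and 414 at day 14. REI1 fell by 1.26 ± 0.15 and 0.44 ± 0.14 in the first interval and stood at -0.09 ± 0.14 and -0.33 ± 0.14 in the second. LSG1 in BM45 read 2121 and 1879.5 at day 2, 1369, 1522 and 1303 at day 5 and 1019, 1094 and 1001 at day 14. In VIN13 LSG1 read 1748, 1400.5 and 1236 at day 2, 1229.8, 1305 and 1165 at day 5 and 1085, 837 and 1125 at day 14. LSG1 fell in BM45 by 0.51 ± 0.15 and 0.42 ± 0.13, and in VIN13 over the whole span by 0.52 ± 0.13. NMD3 fell by 1.18 ± 0.16 and 0.65 ± 0.14 between days 2 and 5, with -0.12 ± 0.14 and -0.30 ± 0.14 after it.

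The strains were then compared day by day, as VIN13 minus BM45. In exponential growth the assembly factor genes were lower in VIN13. At day 2, 35 of the 46 were lower in VIN13 and 0 higher, where 23.3% of all genes were lower and 7.95% higher (0 members were higher at an unadjusted p under 0.05 either), and the median was -0.60 against -0.13 for all genes. All 46 had a mean below that of BM45. SSF1 at -1.30 ± 0.26, CIC1 at -1.06 ± 0.26, RIX1 at -1.03 ± 0.18, SPB1 at -0.94 ± 0.16 and REI1 at -0.92 ± 0.15 were lower by the most, and DBP6, DRS1, SPB4, NOP7, PWP1, NOC2, NOP2, NSA2, RLP24, TIF6 and ARX1 did not pass the test. The value of CIC1 was -0.52 from BM45 replicate 2 alone and -1.60 from BM45 replicate 4 alone. VIN13 replicate 1 was the highest VIN13 array for 42 of the 46 genes. Without it 39 were lower, at a median of -0.77, and without VIN13 replicate 3 23 were lower. Leaving out the 4 arrays leaves BM45 with 1 array at day 2, so no count is given for it. When only the arrays of day 2 entered the fit, 0 members passed limma's test, with 26 lower at an unadjusted p under 0.05. With median centring 18 were lower and with quantile normalization 22.

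At day 5 few members passed the test. By limma 3 members were lower in VIN13 and 0 higher, with 6 and 1 at an unadjusted p under 0.05, where 15.3% of all genes were lower and 9.89% higher, at a median of -0.02 against -0.07. The genes were CIC1 at -2.04 ± 0.23, NSA1 at -0.73 ± 0.09 and the helicase gene DBP3 at -0.50 ± 0.12. Without VIN13 day 2 replicate 1, 7 were lower and 1 higher, and without the 4 arrays 12 and 2. With the ACT1 ratio as a covariate 10 were lower.

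At day 14 the members went both ways. 8 were higher in VIN13 and 9 lower, where 32.4% of all genes were higher and 21.1% lower, at a median of 0.09 against 0.07. The members' shares were 17.4% and 19.6%, the first under that of all genes and the second near it. Higher in VIN13 were NOC2 by 1.04 ± 0.19, SPB4 by 0.77 ± 0.11, DBP9 by 0.76 ± 0.12, NOP15 by 0.52 ± 0.15, DBP7 by 0.38 ± 0.12 and NOP12 by 0.38 ± 0.11. MAK16 and PWP1 were also higher, and since BM45 lay below the background bound they are given as bounds, at least 1.03-fold and at least 1.62-fold (adjusted p = 0.00105 and 0.00032). Lower in VIN13 were CIC1 at -3.22 ± 0.23, NSA1 at -0.89 ± 0.09, NOC3 at -0.68 ± 0.11, NUG1 at -0.60 ± 0.12, DBP3 at -0.51 ± 0.12, NOP7 at -0.47 ± 0.14, SPB1 at -0.41 ± 0.14, RPF1 at -0.35 ± 0.13 and REI1 at -0.34 ± 0.14. CIC1, NSA1 and DBP3 thus gave a lower signal in VIN13 at all 3 days, though at day 2 the size for CIC1 depended on the BM45 array used. Each was read by 1 probe set, and whether its probes match both strains equally was not tested. Without VIN13 day 2 replicate 1 the counts at day 14 were 15 higher and 12 lower, and without the 4 arrays 19 and 15. They were 6 and 11 with quantile normalization, where the median was -0.08, and 6 and 12 with median centring.

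**Figure D4:**
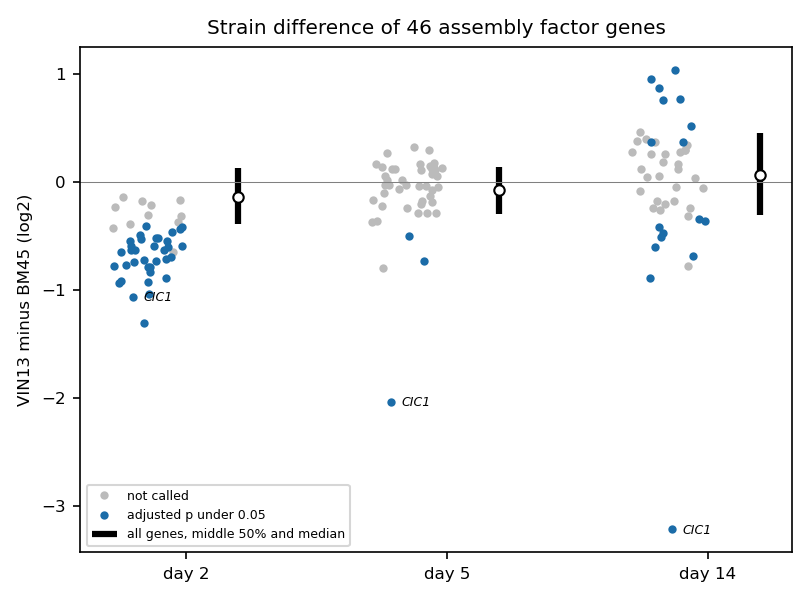
VIN13 minus BM45 on the log2 scale for the 46 genes (1 point each, blue where the adjusted p was under 0.05, grey where not) at days 2, 5 and 14, beside the middle 50% (black bar) and median (white circle) of all genes tested. All 46 points lie below 0 at day 2, most sit around 0 at day 5, and they spread to both sides at day 14, with CIC1 lowest at days 5 and 14.

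Whether the strains changed differently over time was tested in the same fit by taking the change in BM45 from that in VIN13. Between days 2 and 5 the median difference was 0.53 against 0.05 for all genes. 9 members passed the test, all with the higher change in VIN13, where 6.53% of all genes did and 2.13% had the lower change. They were RIX1 at 1.06 ± 0.24, ERB1 at 1.02 ± 0.16 (adjusted p = 0.00184), YTM1 at 1.01 ± 0.24, BRX1 at 0.99 ± 0.24, SPB1 at 0.90 ± 0.21, RPF1 at 0.88 ± 0.20, RPF2 at 0.84 ± 0.24, REI1 at 0.82 ± 0.21 and NOP16 at 0.72 ± 0.20, from 5 of the roles. ERB1 passed under each of 28 alternatives. The number of members that passed moved with single arrays. It was 33 without VIN13 day 2 replicate 1. It was 3 without BM45 day 2 replicate 4, 3 without VIN13 day 2 replicate 2, 1 without BM45 day 5 replicate 2, and 5 each without replicate 3 of BM45 at day 5, replicate 3 of VIN13 at day 2 and replicate 2 of VIN13 at day 5. The day 2 arrays of each strain also serve the strain comparison at day 2, so the results are not independent.

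Between days 5 and 14, 6 members had the higher change in VIN13 and 2 the lower, where 23.8% and 10.3% of all genes did, so the members' shares lay below those of the array. Higher were MAK16 and PWP1, with no size given since BM45 lay below the background bound at day 14, SPB4 at 0.79 ± 0.16, NOC2 at 0.71 ± 0.26, DBP9 at 0.62 ± 0.16 and DBP7 at 0.60 ± 0.17. Lower were CIC1 at -1.18 ± 0.32 and NOC3 at -0.52 ± 0.15. Without VIN13 day 2 replicate 1 the counts were 9 and 4, and without the 4 arrays 12 and 4. They were 2 and 4 with quantile normalization and 3 and 3 with median centring. Over the whole span 26 members had the higher change in VIN13 and 2, CIC1 at -2.16 ± 0.34 and NSA1 at -0.40 ± 0.14, the lower, where 30.6% and 10.1% of all genes did. SSF1 stood at 1.71 ± 0.35, NIP7 at 1.20 ± 0.34 and DBP9 at 1.20 ± 0.17. MAK16, PWP1 and RIX1 passed too, with no size given since a group of each lay below the bound at day 14. With quantile normalization 11 were higher and 2 lower.

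Across the 46 genes the changes of the strains, which share no arrays, ran together, with Pearson's r of 0.746 between days 2 and 5 and 0.862 between days 5 and 14, against 0.799 and 0.719 over all genes; genes of 1 array are not independent, and these values describe the set. Within groups the members' slope on the ACT1 ratio was 0.17 per doubling at the median, above 0 for 36 of the 46. Over all genes the median slope was -0.05, with 2201 of 5449 above 0. Not every group ran this way. In VIN13 at day 14 the array of the lowest ratio, 1.63, was the highest for 26 of the 46. In BM45 at day 2 the array of the lower ratio, 2.29, was the highest for 29. The members' median deviation, relative to all genes, was 0.71 and 0.86 on the BM45 day 2 arrays and 0.70, 0.26 and 0.09 on those of VIN13. With the ACT1 ratio as a covariate 42 members fell and 1 rose in BM45 between days 2 and 5, at a median of -0.81, 26 fell in VIN13, at a median of -0.40, and 37 were lower in VIN13 at day 2, at a median of -0.57.

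**Figure D5:**
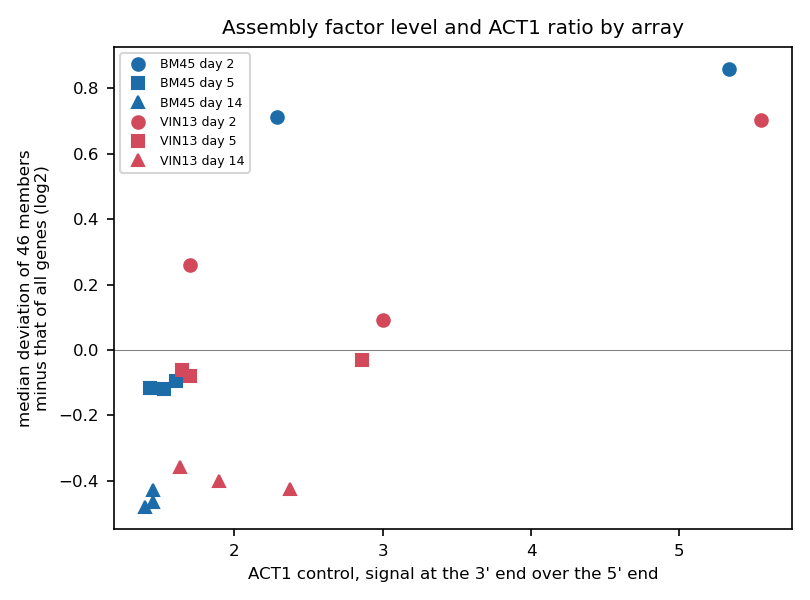
Median deviation of the 46 genes from their means over the 17 arrays, minus that of all genes (y axis, log2), against the ratio of ACT1 control signal at the 3' end over the 5' end (x axis), with 1 point per array, colour by strain and shape by day. The day 2 arrays lie at the top, between 0.09 and 0.86, and VIN13 day 2 replicate 1, at a ratio of 5.55, lies at 0.70, with the BM45 arrays of that day.

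Other genes of the pathway were taken from textbook lists. Their counts stand against 33.9% of all genes that fell and 22.8% that rose in BM45 between days 2 and 5, and 22.2% and 15.5% in VIN13. Of 48 further large subunit factors, 39 fell and 1 rose in BM45 between days 2 and 5, at a median of -0.97, and 25 fell and 2 rose in VIN13, at -0.44. PRP43, a helicase shared with splicing, changed most, by -2.51 ± 0.16 in BM45 and -1.35 ± 0.15 in VIN13. Of 65 small subunit factors, 55 fell and 2 rose in BM45, at a median of -0.90, and 38 fell and 1 rose in VIN13, at -0.45, with RRP36 at -2.24 ± 0.28 and -1.53 ± 0.25. The kinase gene RIO1 of that list went up in both strains, by 0.48 ± 0.18 and 1.39 ± 0.16. Of 15 genes of RNA polymerase I and its factors, which transcribe the ribosomal RNA precursor, 9 fell and 1 rose in BM45 and 5 fell and 1 rose in VIN13. Their median was -0.78 in BM45 and -0.10 in VIN13, where that of all genes was -0.03. RPA43 stood at -1.88 ± 0.18 and -0.91 ± 0.16. At day 2, 30 of the 48, 42 of the 65 and 3 of the 15 were lower in VIN13 than in BM45, at medians of -0.54, -0.55 and -0.16. Their shares were 62.5%, 64.6% and 20.0%, against 23.3% of all genes at a median of -0.13. The RNA polymerase I list thus lay near all genes. Between days 5 and 14 the 48 and the 65 held 28 and 47 that fell in BM45 and 20 and 23 in VIN13. Those were 58.3% and 72.3% in BM45, where 43.1% of all genes fell, and 41.7% and 35.4% in VIN13, where 24.5% did. These counts stand beside those of the members without a test of the difference.

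Of 11 regulators of ribosome synthesis, 2 fell and 4 rose in BM45 between days 2 and 5 and 1 fell and 2 rose in VIN13. The shares that fell were 18.2% and 9.09%, under the 33.9% and 22.2% of all genes, and those that rose were 36.4% and 18.2%, against 22.8% and 15.5%. Among the repressors of the set, DOT6 rose by 0.65 ± 0.21 and 0.59 ± 0.19 and STB3 by 0.88 ± 0.27 and 0.91 ± 0.24, while TOD6 stood at 0.16 ± 0.16 and 0.18 ± 0.14 (adjusted p = 0.396 and 0.337) and rose by 1.16 ± 0.14 in BM45 between days 5 and 14. SFP1, an activator, rose by 1.01 ± 0.25 in BM45, with 0.38 ± 0.22 in VIN13 (adjusted p = 0.184). KOG1, a subunit of TOR complex 1, fell by 0.76 ± 0.13 and 0.54 ± 0.11. The within-group slope of this list on the ACT1 ratio was -0.38 at the median, opposite in sign to that of the members, and its part in the rises was not tested. In the RefSeq gene order of the laboratory strain no 2 of the 46 genes were next to each other, and 4 of them lay beside a small subunit factor, NSA2 beside LCP5, NMD3 beside DBP8, RIX1 beside UTP9 and NOC3 beside CMS1.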

How the data were processed

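Total RNA of 17 samples was hybridised to Affymetrix yeast arrays. The deposited values are intensities per probe set on a linear scale, made with Affymetrix Expression Console per the submitters' processing notes; no version, summary method or further normalization is given in the sources used here. The array medians over genes ran from 866.6 to 1150.4, and no 2 arrays held identical values. Of 10928 probe sets, 7245 were listed in the platform annotation, 5498 of them for 5449 S. cerevisiae genes; 12 symbols were updated from the RefSeq table (R64), and for 47 genes with several probe sets the brightest on average was used. The 1746 S. pombe probe sets gave the background bound (95th percentile).

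Values were taken as log2(intensity + 16). limma 3.58.1 (R 4.3.3) fitted 1 mean per strain and day over all arrays, with empirical Bayes and Benjamini-Hochberg adjustment over 5449 genes, two-sided, called under 0.05, and was tested on simulated data. The summaries and figures used pandas 2.3.3, matplotlib 3.10.9 and numpy 2.4.6 under Python 3.11.15. The members, roles and further lists were chosen with earlier results of these data known. Values on every array are given for the lowest and highest member of each role by the change between days 2 and 5 averaged over the strains, for members whose change then differed between strains, and for members called against the majority. Of the other lists, up to 3 called genes with the largest change a contrast were to be named, and these are given by their changes. Array values of MAK16, PWP1 and NOC2 were added after they were seen, and those of RLP24 and RPP0 also lie outside these rules. Alternatives were pseudocounts of 1 and 64, quantile normalization, median centring, dim genes left out, a trended robust fit, the compared arrays alone, a replicate block, the 4 arrays left out, an ACT1 covariate, the mean over probe sets, and each array left out. Sequences were not used here.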

Additional observations from a re-analysis of the deposited data

Results flagged for a closer look

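These genes were singled out because the same interval changed them differently in the 2 strains, by limma's test of the difference of the changes (VIN13 minus BM45, log2, adjusted p under 0.05). Between days 2 and 5 they were ERB1 (1.02), YTM1 (1.01), RPF1 (0.88), BRX1 (0.99), NOP16 (0.72), RPF2 (0.84), SPB1 (0.90), RIX1 (1.06) and REI1 (0.82). All had the higher change in VIN13, a smaller fall except for NOP16 and RPF2, whose VIN13 changes did not pass the test. Between days 5 and 14 they were DBP7 (0.60), DBP9 (0.62), SPB4 (0.79), CIC1 (-1.18), NOC2 (0.71) and NOC3 (-0.52). Over the whole span from day 2 to day 14 28 passed, and the 3 highest and both lowest of those above the background bound in all groups compared were SSF1 (1.71), NIP7 (1.20), DBP9 (1.20), CIC1 (-2.16) and NSA1 (-0.40). MAK16 and PWP1 in the last 2 contrasts and RIX1 in the last also passed, and are given no size or rank since their BM45 means, and that of RIX1 in VIN13, were under the bound at day 14. The VIN13 day 2 array with the highest ACT1 ratio was the highest VIN13 day 2 array for 42 of the 46 genes, and its part in these differences was not tested beyond the counts without it.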

How the results depend on the processing

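No change of a member called with all arrays turned its sign under any of 28 alternatives. Members called with all arrays that passed under all 28 numbered 37 of 41, 22 of 33 and 39 of 42 in BM45 (days 5 against 2, 14 against 5 and 14 against 2), 14 of 31, 18 of 22 and 33 of 39 in VIN13, and 0 of 35, 3 of 3 and 12 of 17 in the strain comparisons at days 2, 5 and 14. For the difference of the changes they numbered 1 of 9, 4 of 8 and 12 of 28. Leaving out 1 array at a time gave 38 to 43, 33 to 36 and 41 to 43 members called in BM45, 19 to 36, 19 to 35 and 36 to 40 in VIN13, 23 to 39, 3 to 8 and 13 to 27 between strains, and 1 to 33, 6 to 13 and 21 to 40 for the differences. Groups left with 1 array took their spread from the others. With a fit of the compared arrays alone, which has fewer degrees of freedom, 15 members were called in VIN13 between days 2 and 5, 0, 10 and 28 between strains at days 2, 5 and 14, and 1 and 16 for the differences in the first and second intervals; limma's count at an unadjusted p under 0.05 at day 2 was 26. Without the 4 arrays, a choice that itself narrows the spread, the strain counts were 14 at day 5 and 34 at day 14, and that of the difference in the second interval 16. The ACT1 covariate gave 10 at day 5. Median centring gave 18 at day 2, and quantile normalization 22 at day 2, a BM45 median of -0.23 between days 5 and 14 and of -1.11 over the whole span, and 13 for the difference over the whole span. The cause of these shifts was not tested. Relative to all genes the members' median was -0.84, -0.38 and -1.24 in BM45, -0.45, -0.34 and -0.72 in VIN13, and -0.47 at day 2 between strains. With median centring the splits of higher and lower were 5 and 38 in BM45 over the whole span, 6 and 12 at day 14 between strains, and 3 and 3 for the difference in the second interval.

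Replicate numbers are shared between groups in the titles, and the correlations of same-numbered arrays' deviations ran from -0.375 to 0.644 over 31 pairs. Those numbered 2 deviated together, with 9 of 10 pairs over 0.1 and a median of 0.38, while 4 of 10 pairs numbered 1 and 2 of 10 numbered 3 were over 0.1. Since not every pair passed 0.1 and no label ties the numbers to a culture or batch, they were not taken as pairs. With the replicate number as a block 42, 34 and 42 members were called in BM45, 31, 21 and 37 in VIN13, 33, 3 and 18 between strains, and 10, 10 and 26 for the differences. Array number and signal over background limit the weak genes, with MAK16, PWP1 and RIX1 at their bound at day 14.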
